A study of Mus musculus with 12 samples.

Results

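The experiment set mouse neural progenitor cells (NPCs) given a retroviral Srf transgene against NPCs given a retroviral EGFP transgene. Its members were 4 of the 12 arrays of the series, chosen by their titles: 2 arrays labelled Srf and 2 labelled EGFP, all on the same slide. For molecular work the study used either of 2 NPC lines, NSEB5-2C, differentiated from the embryonic stem cell line EB5, and N31, derived from it by way of induced pluripotent stem cells, and kept NPCs in medium with the growth factors EGF and basic FGF. Both lines carry the blasticidin resistance cassette in Oct4 that EB5 has, so both groups share it, and N31 alone also carries doxycycline-dependent Oct4, Klf4, c-Myc and Sox2 and an rtTA. The retroviral vector for overexpression carried a puromycin resistance gene and the open reading frame of the inserted gene. The labels do not name the line behind these arrays, so whether the arrayed cells carry those transgenes is not given, nor do the labels say that the 2 arrays of a group came from separate cultures. The study describes duplicates of its Actb knockdown arrays as technical, so the p-values below measure the spread between arrays, which may be technical.

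The protein made from Srf, serum response factor, binds a short DNA sequence called the CArG box. With cofactors of the myocardin family, such as Mkl1, it drives genes of the actin cytoskeleton and of muscle, and with ternary complex factors of the Elk family it drives immediate-early genes, which respond to growth factors within minutes. Monomeric actin holds Mkl1 back from Srf, which links the state of the cytoskeleton to transcription. The comparison asked which transcripts, beyond the known actin-linked targets, differ when Srf is introduced into neural progenitors.

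Signals are given as log2 of the array signal relative to that array's 75th percentile, so that a value of 0 is the 75th percentile and a step of 1 is a 2-fold difference. A probe was called changed at a limma adjusted p under 0.05 and a difference over 2-fold. The 75th percentile lay between 870.3 and 908.9 signal units on the 4 arrays, 62.7% to 64.8% of probes were well above background and none was saturated. The duplicates correlated at r = 0.9933 (EGFP) and 0.9972 (Srf), and 2.74% and 0.761% of probes differed by over 2-fold within a group. EGFP lay in row 2 of the slide and Srf in row 1, so this row and the group cannot be told apart. Mkl1 lay in the same row as Srf, and a direct difference from Mkl1 is therefore given for many genes as a value within 1 row. Srf and EGFP lay in columns 4 and 3 of the slide and Mkl1 in columns 2 and 1. In the difference from Mkl1, column and group therefore cannot be told apart. In bulk samples, fewer cells of a type and less RNA per cell cannot be told apart.

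The Srf transcript was read by 2 probes, and both were lower on the arrays labelled Srf. The first read 2.64 and 2.78 on the EGFP arrays and 0.24 and 0.26 on the arrays labelled Srf, so the log2 signal fell by 2.46 (SE 0.06), with an adjusted p of 2.54e-06. The second read 2.45 and 2.87 against 1.20 and 1.32, where it fell by 1.40 (SE 0.13, adjusted p = 0.000266). Neither probe's groups overlapped, which runs against the label. No source used here places either probe inside or outside the vector's insert, so the term "arrays labelled Srf" is kept, and directions below follow the labels. Actg2, Acta2 and Tagln, known targets of Srf, were higher on these arrays (4.60, 3.37 and 2.34), although whether the actin probes share signal was not tested. Of other Srf targets that the study names, Cnn1 was higher by a smaller amount and Myl9 (0.26) did not pass the criterion. The known partners of Srf did not pass the criterion: the 2 probes of Mkl1 (listed as Mrtfa in the reference) differed by -0.17 and -0.26, those of Elk3 by -0.43, -0.18 and -0.25, and the probes of Elk4 ran from -0.63 to 0.42. On the arrays labelled Mkl1, set beside Srf below, the Mkl1 probes were not clearly raised either: one read 0.61 and 0.54 against 0.31 and 0.45 in EGFP, the other 3.72 and 3.56 against 3.63 and 3.31, and the latter difference (0.17) had an adjusted p of 0.423. Myocd (myocardin) read -7.10 and -6.35 in EGFP and -4.67 and -5.28 on the arrays labelled Srf. It was well above background on 1 of these 4 arrays and was not tested.

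Short stretches around CArG boxes of some of these genes are shown because Srf binds this sequence and because genes that hold it moved in different ways. They were read from RefSeq promoter windows of build GRCm38.p6, which run from 250 bases before to 50 bases after a gene's start. Each line runs 5′ to 3′ on the gene's strand, and capitals mark the box. The box was searched on the gene's strand, and since its reverse complement is also a CArG box, this covers both strands. Actc1 and the immediate-early genes Dusp5, Egr2 and Zfp36 were added after their values were seen, and those 3 are all members of that list found with a perfect box. The boxes of Egr2 lie in the windows of separate starts.
Srf, 82 bases before the start, chr17:46556225-46556254, minus strand: ctggggctcgCCATATAAGGagcggcctcg
Srf, 62 bases before the start, chr17:46556205-46556234, minus strand: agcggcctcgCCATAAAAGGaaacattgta
Actc1, 47 bases before the start, chr2:114052903-114052932, minus strand: gctaaggcgaCCAAATAAGGcaaggtggca
Dusp5, 82 bases before the start, chr19:53529053-53529082, plus strand: ggggaaatacCCATATTTGGccttatatgg
Dusp5, 72 bases before the start, chr19:53529063-53529092, plus strand: ccatatttggCCTTATATGGgcactcacgt
Egr2, 72 bases before a start, chr10:67537484-67537513, plus strand: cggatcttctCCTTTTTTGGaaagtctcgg
Egr2, 72 bases before a start, chr10:67537787-67537816, plus strand: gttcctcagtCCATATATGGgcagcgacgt
Zfp36, 58 bases before the start, chr7:28379267-28379296, minus strand: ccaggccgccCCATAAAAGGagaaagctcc
Myl9, 161 bases before the start, chr2:156775293-156775322, plus strand: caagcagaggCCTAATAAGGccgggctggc
Cnn2, 56 bases before the start, chr10:79988534-79988563, plus strand: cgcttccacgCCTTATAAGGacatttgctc
Acta2, 84 bases before the start, 1 core base off, chr19:34255438-34255467, minus strand: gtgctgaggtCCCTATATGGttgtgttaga
Acta2, 34 bases before the start, 1 core base off, chr19:34255388-34255417, minus strand: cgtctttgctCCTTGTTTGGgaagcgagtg

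The Srf promoter thus held 2 boxes, and its transcript was lower. Actc1 was at least 3.85-fold higher and Dusp5 higher by 1.27 on the log2 scale, whereas Myl9, Cnn2, Egr2 and Zfp36, which also hold a box, differed by 0.26, -0.37, 0.21 and -0.33 and did not pass the criterion. Acta2, higher by 3.37, held no perfect box in the window and 2 with 1 base of the A/T core replaced. Over all genes with a promoter window, 488 of 27025 (1.81%) held a perfect box. Among genes changed higher the share was 3.51% (18 of 513), among those higher by over 4-fold 6.02% (8 of 133), among genes changed lower 2.2% (7 of 318), among those lower by over 4-fold 0 of 30 and among tested genes not changed 1.7%. When 1 base of the core could be off, the shares were 11.3% of all genes, 16.2% of genes changed higher and 15.7% of genes changed lower, and past 4-fold they were 22.6% (30 of 133) of the higher and 10.0% (3 of 30) of the lower genes. No window of the interferon-stimulated genes described below (26 with a window) held either form. These shares are descriptions without a test.

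Of 35521 probes tested, 1966 were changed (5.53%), of which 1168 were higher (3.29% of those tested) and 798 lower (2.25%). On 1 probe per named gene, 7.0% of genes were changed: 689 of 15678 genes were higher (4.39%) and 409 lower (2.61%), and these shares are the background for the gene lists below. The groups did not overlap at 63.1% of probes, so separate groups alone say little about a gene. The increases had the longer tail: 79 probes were higher by over 8-fold and 14 were lower by over 8-fold, while 880 higher and 715 lower probes lay between 2-fold and 4-fold. Of the changed probes, 311 were well above background on both arrays labelled Srf and on neither EGFP array, and 174 the other way round. With a difference over 2-fold alone and no p, 1412 probes were higher and 1713 lower, so the larger direction depends on the criterion. The median over all tested genes was -0.01.

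**Figure D1:**
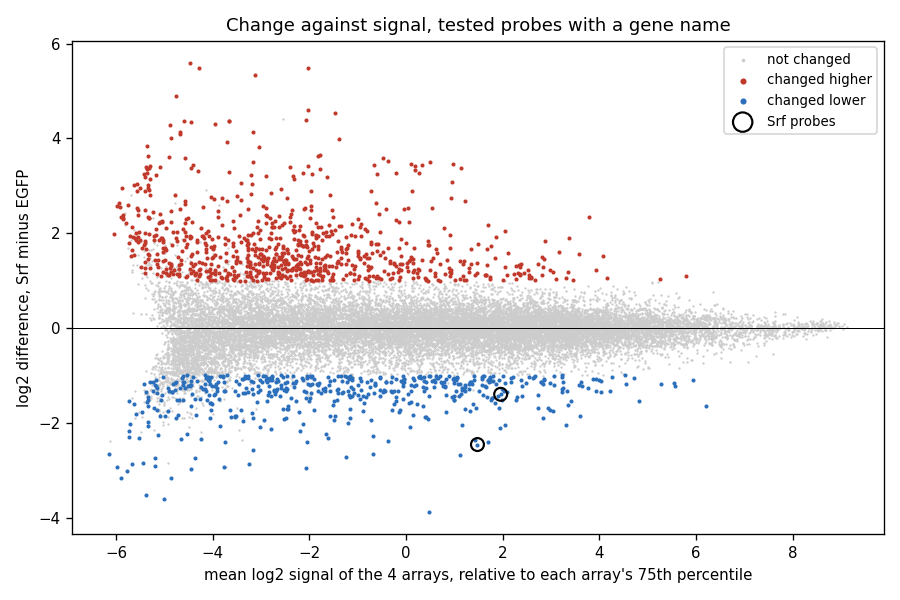
The horizontal axis is the mean log2 signal of the 4 arrays and the vertical axis the log2 difference, Srf minus EGFP, for each tested probe with a gene name (818 changed higher in red, 514 changed lower in blue). Increases reach higher values than decreases at low and middle signal, and both circled Srf probes lie below 0.

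Smooth muscle contractile genes moved to different degrees. Of 18 tested, 7 were higher and 1 lower, with a median log2 difference of 0.35. Actg2 and Acta2, the smooth muscle actins, were higher by 4.60 and 3.37, and Tagln (transgelin, an actin-bundling protein) by 2.34. Tagln read 2.97 and 2.25 in EGFP and 4.86 and 5.05 on the arrays labelled Srf, with no overlap. The other 4 were Myh11 (smooth muscle myosin heavy chain, at least 3.01-fold), Hspb6 (a small heat shock protein of muscle, 1.51), Mylk (myosin light chain kinase, 1.18) and Cnn1 (calponin, 1.14), named after their values were seen. Myh11 went from not well above background (-6.69 and -5.71) to -3.85 and -4.10. Synpo2, an actin-binding protein of the sarcomere's Z-disc, was lower: -0.29 and -0.63 in EGFP against -1.84 and -1.93, a fall by 1.42 (SE 0.12, adjusted p = 0.000185). Normexp background correction, whose added offset of 50 signal units shrinks differences at low signal, took Myh11 (0.66) and Mylk (0.86) below 2-fold. Their limma adjusted p-values there were 9.8e-05 and 0.000792. With the 4 compared arrays alone Myh11 had an adjusted p of 0.0588.

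Genes of striated muscle moved in the same comparison. Of 22 tested, 8 were higher and none lower, at a median of 0.32, and the markers of skeletal muscle cells were low. Tnnt3 (fast skeletal troponin T) read -1.46 and -1.07 in EGFP and 2.16 and 2.31 on the arrays labelled Srf, a difference of 3.50 (SE 0.13, adjusted p = 9.21e-06), and its other probe gave 3.26. Actc1, the cardiac actin, went from not well above background (-6.96 and -7.05) to -3.92 and -3.35, at least 3.85-fold higher (adjusted p = 0.000129). Myom1 (myomesin, of the sarcomere's M-band) was higher by 2.75 (SE 0.41), from -5.61 and -4.76 to -2.55 and -2.31. It was well above background on 1 of 2 EGFP arrays. Troponin C (Tnnc1) was higher by 2.15, myoglobin (Mb) by 1.89, troponin I (Tnni2) by 1.51, Ankrd1 by 1.19 and the skeletal actin Acta1 by 1.1, which normexp took to 0.59. Of the 8 skeletal muscle cell markers, Actn2 alone was tested, with -4.69 and -4.40 against -3.50 and -3.54 (1.02), and did not pass (adjusted p = 0.0556). Myf6 was well above background on 1 array of each group. Myod1, Myog, Myf5 and Pax7 were not well above background on any of the 4 arrays, and the list's summed level lay between 0.136 and 0.199 times the 75th percentile. Transcripts of Acta1, Acta2, Actg2 and Actc1 are closely alike in their coding parts, and whether their probes share signal was not tested.

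The contractile genes differed between the arrays labelled Srf and those labelled Mkl1, which share the EGFP control and the slide row. Acta1 was higher by 4.74 in arrays labelled Mkl1 and by 1.1 in arrays labelled Srf (Srf minus Mkl1 -3.64, adjusted p = 3.46e-06), and Ankrd1 by 2.18 and 1.19 (difference -0.99, adjusted p = 0.000308). Other striated muscle genes lay the other way, apart from Actc1, which was lower on the arrays labelled Srf than on those labelled Mkl1 (-1.67, adjusted p = 0.00283). Tnnc1 differed by -0.00 in arrays labelled Mkl1 and 2.15 in arrays labelled Srf (Srf minus Mkl1 2.16, adjusted p = 9.68e-05), Mb by -0.64 and 1.89 (difference 2.53, adjusted p = 0.000413) and Tnnt3 by 1.5 and 3.50 (difference 2.0, adjusted p = 5.53e-05). The differences for Myom1 and Tnni2 were 2.29 and 1.43 (adjusted p = 0.00593 and 6.18e-05). Among the smooth muscle genes, Cnn1 (-5.42, adjusted p = 1.14e-07), Acta2 (-3.55, adjusted p = 8.15e-07), Myh11 (-1.31, adjusted p = 0.0294), Actg2 (-0.81, adjusted p = 0.00188) and Synpo2 (-0.70, adjusted p = 0.00428) were lower on the arrays labelled Srf than on those labelled Mkl1, and Tagln differed by 0.03 (adjusted p = 0.953). Hspb6 and Mylk were higher on the arrays labelled Srf than on those labelled Mkl1, by 1.27 and 1.17 (adjusted p = 0.000295 and 0.00197). Focal adhesion and stress fibre genes moved little: of 27 tested, Itga5 (an integrin subunit, 1.01) was higher and Csrp2 (a LIM protein, -1.32) lower, at a median of 0.11. Leaving out EGFP replicate 1 or Srf replicate 2 took Itga5 to 0.78 and 0.88, and leaving out Srf replicate 2 took Csrp2 to -1.0, so neither call held in every such set of arrays. With the 4 compared arrays alone their adjusted p-values were 0.0797 and 0.0687, and normexp took Itga5 to 0.92.

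Immediate-early genes rose in part. Of 31 tested, 5 were higher and none lower, at a median of 0.41. Egr4 (a zinc finger factor) was not well above background in EGFP (-7.00 and -7.06) and read -3.93 and -3.42 on the arrays labelled Srf, at least 3.75-fold higher (adjusted p = 0.000646). Arc, a regulator of synaptic strength, read -2.25 and -1.53 against 0.03 and 0.07, a difference of 1.94 (SE 0.20, adjusted p = 0.00047). Fos, a subunit of the AP-1 factor, read -3.29 and -3.21 against -1.41 and -1.33, a difference of 1.88 (SE 0.13, adjusted p = 8.56e-05). In all 3 genes the lowest array labelled Srf lay above the highest EGFP array. The other 2 were the phosphatase Dusp5 (1.27) and Egr1 (1.08), named after their values were seen. Without EGFP replicate 1 or without Srf replicate 2, Egr1 was at 0.98, under 2-fold. Dusp5 lost its call under normexp (0.95) and with the 4 compared arrays alone (adjusted p = 0.0626). On the arrays labelled Mkl1, Fos differed by -0.20 and Egr1 by -0.71, and both were higher on the arrays labelled Srf than on those labelled Mkl1, by 2.08 (adjusted p = 4.35e-05) and 1.79 (adjusted p = 9.72e-05). Arc was lower on the arrays labelled Srf than on those labelled Mkl1 (-0.83, adjusted p = 0.0191), which is under 2-fold.

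**Figure D2:**
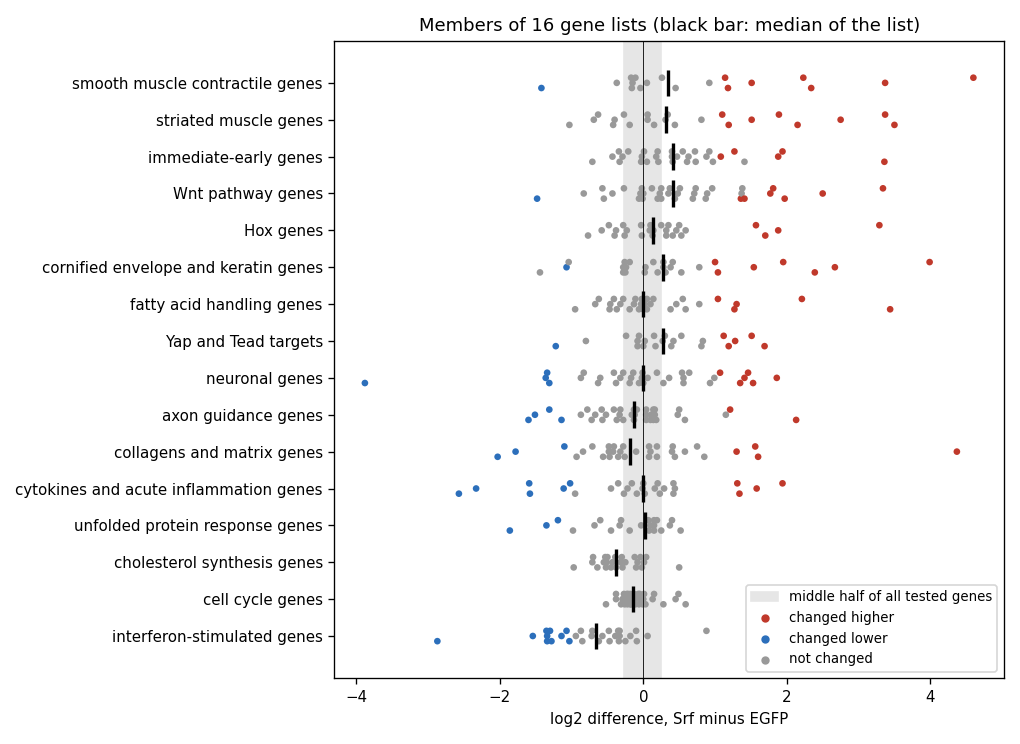
Each point is the log2 difference, Srf minus EGFP, of 1 tested gene in 16 gene lists, red where changed higher, blue where changed lower and grey otherwise; black bars are list medians and the grey band runs between the quartiles of all tested genes (-0.27 and 0.24). The interferon-stimulated genes lie almost wholly below 0, with a median of -0.66, whereas the contractile, immediate-early and Wnt lists have long tails to the right.

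Interferon-stimulated genes, the transcripts that type I and type II interferons induce against viruses and other intracellular microbes, lay mostly below 0. Of 30 tested, 10 were lower and none higher (2.61% of all tested genes were lower), and the median was -0.66. Only 2 lay above 0, Ifit2 (0.06) and Tgtp1 (0.88), and neither passed the criterion. Gbp4, a guanylate-binding protein, read -1.76 and -1.85 in EGFP and -4.49 and -4.85 on the arrays labelled Srf, a fall by 2.87 (SE 0.14, adjusted p = 2.29e-05). Ifit1, which binds foreign RNA, read -1.81 and -2.40 against -3.62 and -3.67, a fall by 1.54 (SE 0.21, adjusted p = 0.00162). Gbp2 read 3.81 and 4.01 against 2.59 and 2.53, a fall by 1.35 (SE 0.08, adjusted p = 4.97e-05). None of these groups overlapped. The ubiquitin-like Isg15, at a high signal, read 3.95 and 3.78 against 2.64 and 2.52, a fall by 1.28 (SE 0.08, adjusted p = 5.36e-05). The other 6 were Gbp9 (-1.34), Oasl2 (-1.34), Ifi44 (-1.3), Xaf1 (-1.14), Irgm2 (-1.07) and Gbp7 (-1.03), named with Isg15 after their values were seen. Taken by symbol, 5 of 9 tested genes of the Gbp family were lower and none higher, at a median of -1.03.

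The same genes were compared within the slide row. Set against Mkl1, the arrays labelled Srf were lower in Gbp4 (-2.5, adjusted p = 2.97e-05), Gbp2 (-1.05, adjusted p = 0.000119), Xaf1 (-1.01, adjusted p = 0.000265), Ifit1 (-0.70, adjusted p = 0.0424) and Isg15 (-0.69, adjusted p = 0.000736), the last 2 by less than 2-fold. The other 5 were lower by less than 2-fold: Gbp9 (-0.92), Oasl2 (-0.77), Gbp7 (-0.72), Ifi44 (-0.59) and Irgm2 (-0.36), with adjusted p-values between 0.000373 and 0.0365. Mkl1 against EGFP gave -0.37, -0.30, -0.13, -0.84 and -0.60 for the first 5 genes, with adjusted p-values of 0.19, 0.0982, 0.48, 0.0571 and 0.0106. Without EGFP replicate 2, Gbp7 was at -0.93, without Srf replicate 1 at -0.96, and Irgm2 at -0.93 without EGFP replicate 1 and -0.99 without Srf replicate 2. Normexp took Gbp7 to -0.90. Of 16 antigen presentation genes tested, only Cd74, the invariant chain of class II molecules, passed, and it was higher (1.5, SE 0.13, adjusted p = 0.000204), while 12 of the 16 lay below 0, at a list median of -0.16.

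**Figure D3:**
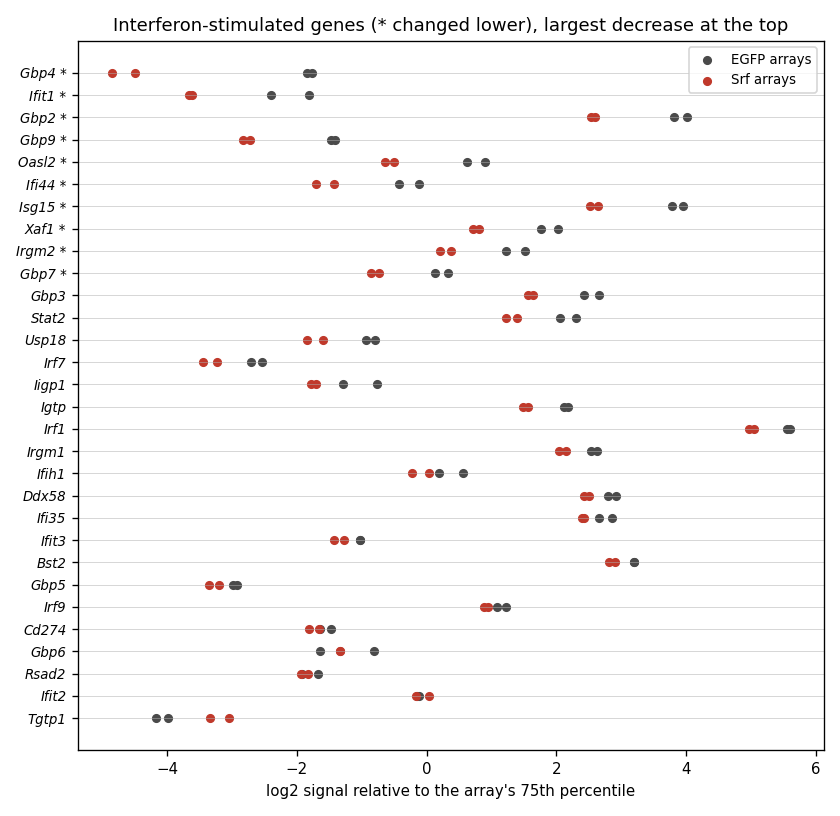
Points are the log2 signals of the 30 tested interferon-stimulated genes on the 2 EGFP arrays (grey) and the 2 arrays labelled Srf (red), ordered from the largest decrease at the top, with an asterisk on the 10 changed lower. The red points lie to the left of the grey ones in nearly every row, and only Tgtp1 and Ifit2, at the bottom, differ by more than 0.

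Secreted signals of inflammation went both ways. Of 27 tested cytokine and acute inflammation genes, 4 were higher and 6 lower (median -0.01). The matrix metalloproteinase Mmp3 read -1.81 and -1.95 in EGFP and -4.27 and -4.62 on the arrays labelled Srf, a fall by 2.57 (SE 0.16, adjusted p = 5.11e-05). Tnfaip6, a hyaluronan-binding protein, was lower (-1.59), and Il1a (interleukin 1 alpha) was lower by at least 2.18-fold. Il1a lost its call under each of EGFP replicate 1, EGFP replicate 2 and Srf replicate 1 left out (adjusted p = 0.0502, 0.119 and 0.163). Il33, an alarmin (1.94), Saa3, an acute phase protein (1.58), and Lif, a cytokine of the interleukin 6 family (1.34), were higher. Il33 was well above background on 1 of 2 EGFP arrays. Il33 had an adjusted p of 0.0645 without Srf replicate 2. Of 20 tested chemokines, Ccl8 (4.53) and Cxcl15 (at least 1.67-fold) were higher, while Cx3cl1 (-1.06) and Ccl9 (-1.09) were lower. Cx3cl1, the neuronal chemokine read by microglia, was bright and tight, with 5.26 and 5.25 against 4.18 and 4.20. Ccl9 was at -0.96 without EGFP replicate 2. Normexp took Il1a (-0.51), Il33 (0.77), Lif (0.80), Cxcl15 (0.39) and Ccl9 (-0.66) below 2-fold. With the 4 compared arrays alone the adjusted p was 0.103 for Il1a and 0.0539 for Saa3, and with a variance trend it was 0.0979 for Cxcl15.

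Microglia and macrophage markers were measured beside these genes. Of 11 on the array, 8 were tested, 3 were higher and 1 lower. The summed level of the list was 9.34 and 9.72 times the 75th percentile in EGFP and 15.3 and 16.1 on the arrays labelled Srf. Csf1r, the receptor of macrophage growth factor, was higher by 1.44 at its brightest probe and by 1.14 at another, while the last differed by 0.05. Cd68 was higher by 1.12 and Fcer1g by 1.06. Cd68 was at 0.97 without EGFP replicate 1, and Fcer1g at 1.0 without EGFP replicate 2 or Srf replicate 2. Aif1 was lower (-1.29), a call lost without EGFP replicate 2 or Srf replicate 2 (adjusted p = 0.137 and 0.195) and with the 4 compared arrays alone (adjusted p = 0.16). Normexp took Fcer1g (0.67) and Aif1 (-0.55) below 2-fold. The integrin Itgam, the brightest of the list, read 2.67 and 2.67 against 3.21 and 3.23 and did not pass (0.55). C1qb (-0.34), Ptprc (-0.29) and Adgre1 (-0.22) were well above background on all 4 arrays and did not pass either. Tyrobp (-3.76 and -5.09 against -5.72 and -7.18) was well above background on 1 EGFP array and was not tested. Cx3cr1 and C1qa were not well above background on any of the 4 arrays. The part of these markers in the inflammation genes was not tested.

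Several Wnt pathway genes were higher. Wnt proteins act through Frizzled receptors and beta-catenin and are held in check by secreted antagonists. Of 36 tested, 7 were higher and 1 lower, at a median of 0.41, where 4.39% of all tested genes were higher. The largest changes were in antagonists: Sfrp2, which binds Wnt proteins, read -1.60 and -1.36 in EGFP and 1.91 and 1.82 on the arrays labelled Srf, a difference of 3.34 (SE 0.10, adjusted p = 6.15e-06). Dkk1, which blocks the Lrp co-receptors, read -1.38 and -1.23 against 1.21 and 1.19, a difference of 2.5 (SE 0.09, adjusted p = 8.7e-06). Nkd1, an intracellular inhibitor, was higher by 1.97 at its brightest probe, with -0.60 at another. None of the groups of Sfrp2 and Dkk1 overlapped. The receptors Lgr5 (1.81) and Fzd4 (1.77), the ligand Wnt7b (1.41) and the transcription factor Lef1 (1.36), named after their values were seen, were also higher, and Dkk2, another antagonist of the Dkk family, was lower (-1.48, SE 0.12). Lef1 was at 0.99 under normexp and Wnt7b had an adjusted p of 0.0736 with the 4 compared arrays alone.

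Sfrp2 and Dkk1 moved in opposite directions on the arrays labelled Srf and Mkl1, which share their control. Sfrp2 was higher by 3.34 in arrays labelled Srf and lower in arrays labelled Mkl1 (-1.16, adjusted p = 0.00231), and the direct difference was 4.51 (adjusted p = 7.95e-07). Dkk1 was higher by 2.5 in arrays labelled Srf and lower in arrays labelled Mkl1 (-2.41, adjusted p = 0.000129), with a difference of 4.92 (adjusted p = 5.69e-07). Nkd1 (0.54 in arrays labelled Mkl1, adjusted p = 0.0556) was higher on the arrays labelled Srf by 1.43 (adjusted p = 0.000223), whereas Dkk2 was lower in both, at -1.19 in arrays labelled Mkl1, and the difference of -0.28 did not pass (adjusted p = 0.12). Wnt7b did not differ between them beyond the test (-0.37, adjusted p = 0.255), being higher by 1.78 in arrays labelled Mkl1.

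Hox genes, which specify position along the body axis, were higher at 4 of 27 tested and lower at none, with a median of 0.14. Hoxb9 was well above background on 1 of 2 EGFP arrays (-5.81 and -4.79) and read -2.16 and -1.86 on the arrays labelled Srf, a difference of 3.29 (SE 0.32, adjusted p = 0.000378). Hoxc9 read -3.66 and -4.24 against -2.11 and -2.03 (1.88, SE 0.29, adjusted p = 0.00293), and Hoxb7 read -3.62 and -3.44 against -1.89 and -1.77 (1.70, SE 0.12, adjusted p = 0.000108). The last of the 4 was Hoxc4 (1.57). All 4 lie in the Hoxb and Hoxc clusters, none overlapped between groups, and each was also higher than on the arrays labelled Mkl1 (3.07, 2.42, 1.70 and 1.67, in the order named, adjusted p = 0.000451, 0.00085, 8.88e-05 and 2.15e-05). Hoxb9 was well above background on 1 of the 2 arrays labelled Mkl1.

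Genes of fatty acid handling were higher at 5 of 31 tested and lower at none, at a median of 0.00. Lpl, the lipase that frees fatty acids from lipoproteins, read -1.41 and -1.36 at its brightest probe in EGFP and 2.07 and 2.04 on the arrays labelled Srf, a difference of 3.44 (SE 0.06, adjusted p = 8.33e-07). Plin4, a lipid droplet coat protein, was higher by 2.21, from -3.81 and -3.95 to -1.87 and -1.47. The fatty acid carrier Fabp4 (1.3), the nuclear receptor Pparg (1.27) and the secreted Angptl4 (1.04), which inhibits Lpl, were the other 3. None of these 5 groups overlapped. Fabp4 was at 0.92 under normexp, Pparg had an adjusted p of 0.0522 with the 4 compared arrays alone, and Angptl4 was at 0.97 without EGFP replicate 2. Cholesterol synthesis genes, by contrast, had no member past the criterion among 25 tested: the median was -0.38, and in limma 1 was higher and 16 lower at an unadjusted p under 0.05, where 24.1% of all tested genes were higher and 23.2% lower. The largest differences were those of Tm7sf2, a sterol reductase, with 5.10 and 4.85 against 4.09 and 3.91 (-0.97, adjusted p = 0.000795), and of the kinase Pmvk (-0.71), neither of them 2-fold. In the glycolysis and hypoxia list, 1 of 22 was lower, Car9, a hypoxia-induced carbonic anhydrase (-1.25, SE 0.06, adjusted p = 1.96e-05), and none was higher (median -0.19).

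The cornified envelope and keratin list, proteins of the skin barrier, had 7 of 27 tested genes higher and 1 lower (median 0.28). Sprr1a (3.99) and Lor (loricrin, 2.67) were higher, and Sprr2k (at least 1.90-fold) and Lce1g (at least 3.86-fold) were gained from levels not well above background. Normexp took Sprr2k to 0.63 and Lce1g to 0.75, and with the 4 compared arrays alone Lce1g had an adjusted p of 0.0589. Lor read -0.22 and -0.00 in EGFP and 2.64 and 2.47 on the arrays labelled Srf. Krt19, a simple epithelial keratin, was lower, with 4.39 and 4.53 against 3.37 and 3.41, a fall by 1.07 (SE 0.08, adjusted p = 0.000117). On the arrays labelled Mkl1, Krt19 was higher by 0.95 and Lor differed by -0.36, so that Srf minus Mkl1 was -2.03 for Krt19 (adjusted p = 6.91e-06) and 3.03 for Lor (adjusted p = 4.06e-06). Of the 7 keratinocyte markers, Lor alone among 6 tested passed the criterion, and Krt5 and Krt14 lay between -3.65 and -3.11 on all 4 arrays. Trp63 read 2.62 and 2.49 against 2.94 and 2.95 (0.39) and Krt10 differed by 0.31, both well above background on all 4 arrays and neither past the criterion, while Ivl read -3.93 and -4.13 against -4.83 and -5.31 (-1.04, adjusted p = 0.326) and Krt1 was not well above background on any. The summed level of the markers was 7.88 and 8.28 times the 75th percentile in EGFP and 14.8 and 15.4 on the arrays labelled Srf, and most of it came from Trp63 in EGFP and from Trp63 and Lor on the arrays labelled Srf. The part of such cells in the list was not tested.

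Matrix genes changed in both directions. Of 32 collagens and matrix genes tested, 4 were higher and 3 lower (median -0.18). Lumican (Lum), a collagen-binding proteoglycan, went from not well above background (-5.54 and -6.15) to -1.39 and -1.55, at least 17.3-fold higher. The basement membrane collagens Col4a1 and Col4a2, which lie side by side in the genome, were higher by 1.56 and 1.60, with 2.47 and 3.15 against 4.31 and 4.43 for Col4a1. With the 4 compared arrays alone their adjusted p-values were 0.0589 and 0.0546. Lox, the enzyme that crosslinks collagen, was lower (-2.03, SE 0.21), as were Timp3, an inhibitor of metalloproteinases (-1.78), and Col1a2 (-1.1). Among integrins and laminins, 3 of 26 were higher and none lower, led by the laminin chain Lama4 (-3.50 and -3.31 against -0.55 and -0.48, a difference of 2.90, SE 0.09, adjusted p = 6.26e-06). Itga1 was higher by 1.52 at its brightest probe and differed by 0.00 at another. Of the fibroblast and pericyte markers, 2 of 8 tested were higher (Lum and Thy1) and 1 lower (Col1a2). Their summed level was 172 and 173 times the 75th percentile in EGFP and 102 and 99.3 on the arrays labelled Srf. The lower sum came with Col1a2 (6.51 and 6.48 against 5.38 and 5.42) and Col3a1 (6.05 and 6.12 against 5.27 and 5.21), the latter not past the criterion, while 6 of the 8 tested markers lay above 0, at a median of 0.32. Normexp took Thy1 to 0.89. The part of fibroblast-like cells in the matrix genes was not tested.

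Blood vessel morphogenesis genes were higher at 5 of 32 tested and lower at 1 (median 0.04). Edn1 (endothelin, at least 3.33-fold, and at 0.66 under normexp), the matricellular protein Ccn2 (1.28) and the plasminogen activator Plat (1.13) changed most. The ephrin receptor Ephb4 was lower (-1.04). Of 10 endothelial markers, 5 were tested. Vwf (von Willebrand factor) was at least 11.4-fold higher (-5.06 and -4.79 against -1.41 and -1.40), and Esam lower (-1.27, a call lost when any of the 4 arrays was left out, adjusted p = 0.0611 to 0.154), and normexp took Esam to -0.44. Kdr (2.48 and 2.54 against 2.33 and 2.42), Pecam1 (0.12) and Cldn5 (-0.55) were well above background on all 4 arrays and did not pass. Cdh5, Tie1, Tek, Emcn and Erg were not well above background on any of the 4 arrays. The summed level of the list was 6.02 and 6.21 times the 75th percentile in EGFP and 5.76 and 6.07 on the arrays labelled Srf. Targets of Yap and Tead, which share stimuli with the actin cytoskeleton, were higher at 5 of 22 and lower at 1 (median 0.28), led by Fjx1 (1.69) and the ectonucleotidase Nt5e (1.51), with the factor Tead2 itself lower (-1.22). Fjx1 had an adjusted p of 0.0546 with the 4 compared arrays alone.

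Neuronal genes went both ways. Of 35 tested, 6 were higher and 4 lower, and the median was -0.01. Stmn2, which loosens microtubules in growing axons, had the largest decrease among tested probes with a gene name (-3.88). Crmp1 and Dpysl3, 2 related proteins of growth cone guidance, were also lower: Dpysl3 read 4.77 and 4.43 in EGFP and 3.21 and 3.31 on the arrays labelled Srf, a fall by 1.34 (SE 0.11, adjusted p = 0.000168), and Crmp1 differed by -1.36. Some neuronal cytoskeletal proteins were higher: the neuronal tubulin Tubb3 read -1.45 and -1.17 against 0.31 and 0.14 (1.53, SE 0.11, adjusted p = 9.28e-05), the intermediate filament Ina differed by 1.46 and the neurofilament Nefl by 1.41. Nefh, a heavier neurofilament, was at least 3.26-fold higher at its brightest probe. It differed by -0.49 at another probe and lost its call without EGFP replicate 2 or either array labelled Srf (adjusted p = 0.0636 to 0.0814). Normexp took Nefh to 0.59, and with the 4 compared arrays alone Nefh and Nefl had adjusted p-values of 0.0813 and 0.0629. The microtubule-associated Mapt (0.99) and Map2 (-0.87) did not pass. On the arrays labelled Mkl1, Tubb3 and Ina differed by -0.28 and 0.18, and their Srf minus Mkl1 differences were 1.82 (adjusted p = 3.53e-05) and 1.28 (adjusted p = 0.000909).

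Axon guidance genes were lower at 4 of 37 tested and higher at 2 (median -0.13). The 3 largest decreases were in the semaphorins Sema3a (1.24 and 0.81 against -0.58 and -0.58, a fall by 1.60, SE 0.14) and Sema5a (2.51 and 2.54 against 0.95 and 1.08, a fall by 1.51, SE 0.08) and in the ephrin receptor Epha3 (-1.31). The semaphorin receptor Plxna4 (2.13) and the semaphorin Sema6a (1.21) were higher. Sema5a differed by -0.09 in arrays labelled Mkl1 (Srf minus Mkl1 -1.42, adjusted p = 2.43e-05), whereas Epha3 was lower in arrays labelled Mkl1 by more than in arrays labelled Srf (-2.08, difference 0.77, adjusted p = 0.0023). Of 17 tested neurotransmitter receptor genes, the cannabinoid receptor Cnr1 (at least 9.91-fold) and the GABA receptor subunit Gabrg1 (at least 3.00-fold) were higher, both from levels not well above background. Gabrg1 had an adjusted p of 0.0518 without EGFP replicate 1 and 0.0565 without Srf replicate 2. Of 16 tested channel genes, only Cacna1c passed, higher by 1.36 at its brightest probe and at -0.69 at another. It lost its call under normexp (0.67) and with the 4 compared arrays alone (adjusted p = 0.0608). Normexp also took Sema6a (0.66) and Gabrg1 (0.58) below 2-fold.

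The 7 genes used to check the cell type, among them Nes, Sox2, Pax6, Fabp7 and Vim, were well above background on all 4 arrays. Their summed level was 280 and 297 times the 75th percentile in EGFP and 267 and 259 on the arrays labelled Srf, most of it from the intermediate filament Vim. Sox2, the factor that maintains neural stem cells, alone passed the criterion: it read 1.70 and 1.34 in EGFP and 0.59 and 0.35 on the arrays labelled Srf, a fall by 1.05 (SE 0.14, adjusted p = 0.00186). Its groups did not overlap, but it was at -0.87 without EGFP replicate 1 and -0.93 without Srf replicate 2, both under 2-fold. It was at -0.95 under normexp and had an adjusted p of 0.059 with the 4 compared arrays alone. One of the possible lines, N31, carries a doxycycline-dependent Sox2 transgene, whose part in the signal was not tested. Of 29 neural progenitor and radial glia genes, the matrix protein Tnc (2.83), the Notch effector Hes1 (1.11) and the homeobox factor Lhx2 (1.06) were higher and Sox2 was lower (median 0.01). Tnc was well above background on 1 of 2 EGFP arrays and differed by 0.70 at another probe. With the 4 compared arrays alone Tnc had an adjusted p of 0.0524. Lhx2 was at 0.98 without EGFP replicate 1. Normexp took Hes1 to 0.89 and Lhx2 to 0.92.

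Glial and stem cell lists differed in their shares of changed genes. Of the tested astrocyte genes 16.7% were higher and 8.33% lower, where 4.39% and 2.61% of all tested genes were. The higher share was 10.0% in the oligodendrocyte list and 5.88% in the pluripotency list, with none lower in either. Of 12 astrocyte genes, Sparcl1 (2.05) and the chaperone Clu (1.1) were higher and the glycolytic Aldoc (-1.16) lower (median 0.15). Sparcl1, a secreted matrix protein of astrocytes, read 1.15 and 0.89 against 3.03 and 3.11, and it was lower in arrays labelled Mkl1 (-1.41), a direct difference of 3.46 (adjusted p = 2.1e-06). Of 10 oligodendrocyte lineage genes, Ugt8a was higher (1.07), but at 0.99 without EGFP replicate 2, 0.96 without Srf replicate 2 and 0.51 under normexp. Among 17 pluripotency genes, Esrrb, a nuclear receptor of embryonic stem cells, was the only one to pass: it read -1.13 and -1.31 in EGFP and 1.43 and 1.19 on the arrays labelled Srf, a difference of 2.53 (SE 0.12, adjusted p = 1.62e-05). Nanog (-0.90 and -1.15 against -0.87 and -0.93) and Pou5f1 (-3.98 and -4.41 against -4.13 and -4.96) overlapped between the groups.

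Few growth and stress genes passed the criterion. None of 34 cell cycle genes passed in limma (median -0.15), and at an unadjusted p under 0.05 with no fold threshold 4 were higher and 17 lower, against 24.1% and 23.2% of all tested genes. The largest differences were in the cyclin Ccnd1 (0.59) and the phosphatase Cdc25c (-0.52). Ribosomal protein genes lay close to 0: the median was 0.01 both for 48 Rpl genes, with quartiles of -0.05 and 0.05, and for 31 Rps genes, with quartiles of -0.06 and 0.05. Of 22 unfolded protein response genes, 3 were lower and none higher: the pseudokinase Trib3 (4.35 and 4.71 against 2.30 and 3.03, a fall by 1.86, SE 0.27), the glutathione-degrading enzyme Chac1 (-1.35) and the factor Atf5 (-1.19). The list's median was 0.02. With the 4 compared arrays alone Trib3 and Chac1 had adjusted p-values of 0.0563 and 0.11. Of 21 genes of p53 targets and growth arrest, the death receptor Fas was lower (-1.06; median -0.13), at -0.96 without EGFP replicate 1 and -0.99 without Srf replicate 2. Of 15 histone deacetylases and acetyltransferases none passed in limma (median -0.17, 3 higher and 6 lower at an unadjusted p under 0.05), with Hdac9 (-0.83) and Kat2b (0.62) furthest from 0. In the Notch list, 2 of 21 were higher (Nrarp 1.25, Hes1 1.11) and 1 lower (Jag2 -1.24; median 0.02), and Nrarp was at 0.88 without EGFP replicate 1 and Jag2 had an adjusted p of 0.0519 without Srf replicate 1. In the TGF-beta and BMP list, 2 of 32 were higher (Inhbb 1.22, Tgfb2 1.12) and 1 lower (Grem1, at least 1.74-fold; median 0.09). Inhbb was at 0.96 without EGFP replicate 1, Tgfb2 at 0.99 without EGFP replicate 2, and Grem1 had adjusted p-values of 0.0926, 0.0959 and 0.123 without EGFP replicate 1, EGFP replicate 2 and Srf replicate 2. Normexp took Fas (-0.94), Nrarp (0.75), Jag2 (-0.60) and Grem1 (-0.42) below 2-fold, and with the 4 compared arrays alone Inhbb, Nrarp and Grem1 had adjusted p-values of 0.0597, 0.0883 and 0.163.

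Among single genes well above background on all 4 arrays, the increases ranked 6 to 15 by size were Nkx2-5, Sprr2a2, Tnnt3, Bves, Esx1, Dok2, Rarres2, Sgk2, Kbtbd11 and Acta2, between 3.37 and 3.63. Nkx2-5, a homeobox factor of heart development, read -3.44 and -3.82 in EGFP and 0.06 and -0.05 on the arrays labelled Srf (3.63, SE 0.12, adjusted p = 6.97e-06). Bves, a membrane protein of heart and skeletal muscle, read -1.44 and -1.79 against 1.90 and 1.81 (3.47, SE 0.12). Esx1, a homeobox factor of the placenta, read -0.84 and -0.68 against 2.79 and 2.60 (3.45, SE 0.10). The groups of these 3 genes did not overlap. Dok2, an adaptor below receptor tyrosine kinases, differed by 3.43 (SE 0.12), Rarres2, the adipokine chemerin, by 3.41 (SE 0.25) and the kinase Sgk2 by 3.41 (SE 0.15). The probes of 2 genes disagreed: Sprr2a2 differed by 3.52 at one and -0.12 at another, and Kbtbd11 by 3.39 at one and by -0.90 and -0.04 at 2 others.

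The decreases ranked 6 to 15 were Mmp3, Srf, Ogn, Dynap, Crabp1, Scara5, Akr1c14, Cpne8, Septin8 and Pid1, between -2.57 and -2.14. Ogn, a small leucine-rich proteoglycan, read 3.12 and 2.67 in EGFP and 0.57 and 0.42 on the arrays labelled Srf (-2.40, SE 0.14). Crabp1, which binds retinoic acid in the cytoplasm, read 2.51 and 2.69 against 0.23 and 0.26 (-2.36, SE 0.08). Dynap, a membrane protein that binds dynactin, read 0.75 and 0.88 against -1.57 on both arrays (-2.39, SE 0.07, adjusted p = 3.63e-06). None of the groups of these genes overlapped. Scara5, a ferritin receptor, was lower at its leading probe (-2.32) and at -1.71 with an adjusted p of 0.0521 at another. The 3 probes of Septin8 gave -2.18, -1.04 and -2.04.

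**Figure D4:**
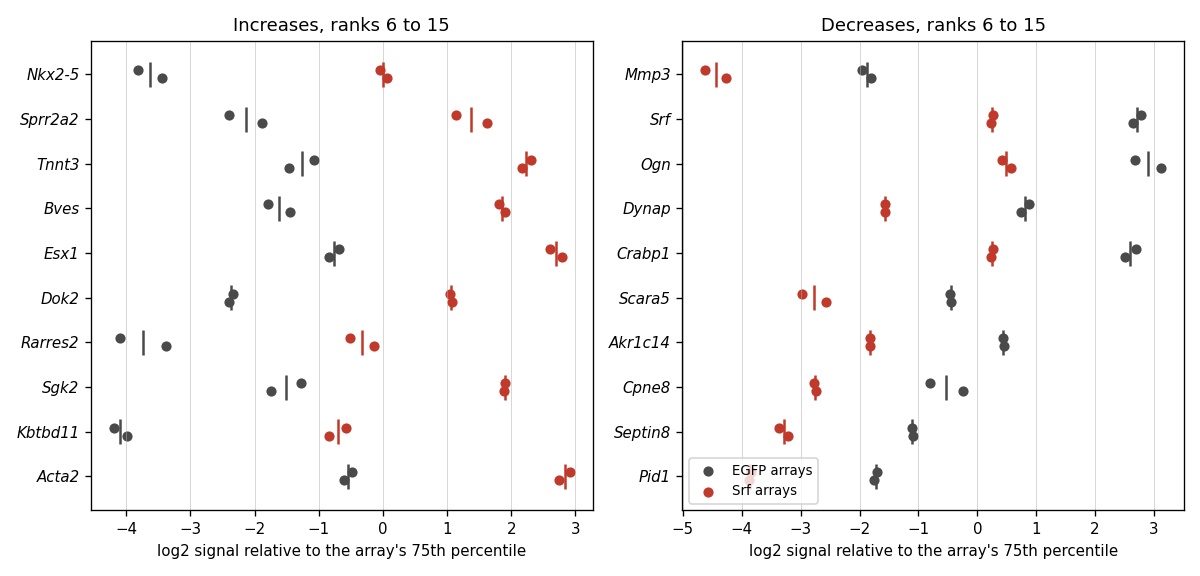
Points are the log2 signals on each EGFP array (grey) and each array labelled Srf (red) for the genes ranked 6 to 15 by size of increase (left) and decrease (right), and vertical ticks are group means (n = 2). The points of the groups lie apart in every row, which the choice of rows by size of change makes likely. The difference is largest in Nkx2-5 (3.63) on the left and Mmp3 (-2.57) on the right.

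Some genes were well above background on both arrays of one group and on neither of the other, so their fold is a lower bound. It sets the mean of the bright group against the dim group's probe or the lowest signal well above background on each array, whichever was higher. The 8 largest such increases were Ppbp (a platelet chemokine, at least 31.5-fold), Lum (17.3), Cfap52 (a protein of motile cilia, 17.1), Apol10b (16.6), Prss46 (14.9), Igf2 (14.1), Igfbp5 (14) and Mycn (13.7). Ppbp read -6.13 and -5.44 in EGFP and -0.33 and -0.57 on the arrays labelled Srf (adjusted p = 1.4e-05). The growth factor Igf2 read -4.69 and -5.20 against -1.23 and -1.03 (adjusted p = 0.000186), and Igfbp5, which binds insulin-like growth factors, read -5.35 and -5.96 against -1.63 and -1.84 (adjusted p = 0.000624). Mycn, a MYC family factor, read -6.34 and -5.88 against -1.85 and -1.75 (adjusted p = 7.15e-05). Apol10b had another probe at -0.48. The 8 largest decreases of this kind had smaller bounds, from Usp17la (at least 5.76-fold) through Itgbl1 (4.95), Rpl10l (4.88), Mst1 (4.18), Srpx (3.68), Fut1 (3.65) and Angptl1 (3.20) to Ypel1 (3.19). Mst1, a secreted ligand of macrophages, read -3.69 and -3.15 against -5.48 and -5.84, and its other probe gave -2.35. Usp17la had another probe at 0.62, and Rpl10l had another at -0.65 (limma adjusted p = 0.103). The EGFP arrays disagreed on Rpl10l (-4.64 and -1.75), which lost its call without either array labelled Srf (adjusted p = 0.0642 and 0.0715). Angptl1 lost its call when any of the 4 arrays was left out (adjusted p = 0.0644 to 0.181), and with the 4 compared arrays alone Itgbl1 and Rpl10l had adjusted p-values of 0.0505 and 0.131. Normexp, whose offset shrinks such low signals, took all of these 8 but Usp17la below 2-fold, to between -0.99 and -0.61. Their limma adjusted p-values there lay between 0.000384 and 0.0238.

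The largest changes were set beside the other treatments, each against its own control: Mkl1 against the same EGFP arrays, and 2 hairpins against Actb, the beta-actin gene, against shEGFP on other slides, where shActb_2 lay on a slide apart from shEGFP, so that slide and group cannot be told apart. Over all probes 2.79% changed in arrays labelled Mkl1, 1.61% with shActb_1 and 6.31% with shActb_2. Of 35697 probes tested, 1784 (5.0%) differed between Srf and Mkl1, 1165 higher and 619 lower in arrays labelled Srf. Among the increases, Nkx2-5 was higher in both (3.63 in arrays labelled Srf, 2.55 in arrays labelled Mkl1), with 0.25 for shActb_1 and 1.54 for shActb_2. Sgk2 was higher by 3.41, 2.06, 1.59 and 2.80 in that order, and Bves by 3.47, 2.21, 0.79 and 0.97. Dok2 and Rarres2 gave -0.26 and -0.61 in arrays labelled Mkl1 and lay between -0.19 and -0.01 with the hairpins, and their Srf minus Mkl1 differences were 3.69 (adjusted p = 3.04e-06) and 4.02 (adjusted p = 4.87e-05). Esx1 differed by 0.74 in arrays labelled Mkl1 and was higher in arrays labelled Srf by a further 2.71 (adjusted p = 4.53e-06). Among the decreases, Akr1c14, an aldo-keto reductase, gave -2.28, -1.41, -1.93 and -2.13, and Ogn -2.40, -1.38, -1.83 and -2.77. Septin8 gave -2.18 in arrays labelled Srf and -0.12 in arrays labelled Mkl1, a direct difference of -2.06 (adjusted p = 3.63e-06). Dynap was lower in arrays labelled Srf (-2.39) and higher in the other 3 (2.13, 1.97 and 2.36). Of the genes gained from background, Lum was not well above background on the arrays labelled Mkl1 either (-7.56 and -7.47).

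**Figure D5:**
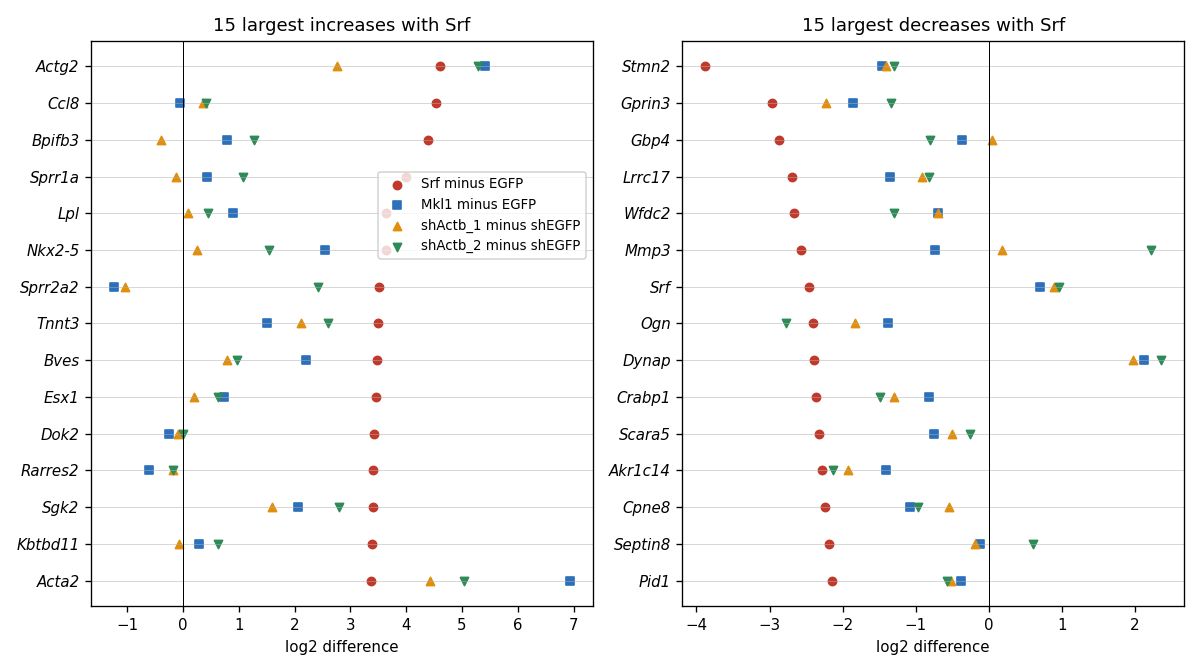
Each row is a gene among the 15 largest increases (left) or decreases (right) in arrays labelled Srf, and the markers are its log2 difference for Srf (circles) and Mkl1 (squares) against EGFP and for each Actb hairpin (triangles) against shEGFP. Dynap and Srf are the rows where the circle lies below 0 and the other 3 markers above it, and Acta2 reaches 6.93 in arrays labelled Mkl1 against 3.37 in arrays labelled Srf.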

How the data were processed

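Total RNA was labelled with cyanine 3 and hybridized to 1-colour Agilent mouse arrays of 62976 features. The authors scanned and quantified the arrays with Feature Extraction 11.5.1.1, and the deposited intensities are background-subtracted signals per spot, not normalized between arrays. Flags for spots well above background, saturated or outlying were taken from the same files. The authors also deposited a table of log2 values, used here as an alternative. After a small constant per array it matched log2 of the processed signal less the 75th percentile, within 0.01 for 100% of probes, and its array medians ran from -4.0921 to -3.6763.

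From the processed signal, control and outlier spots were dropped, spots of a probe averaged, log2 taken and each array's 75th percentile subtracted. Accessions matched RefSeq (GRCm38.p6, used for names and promoter sequences) for 28026 of 55681 probes (50.333%), 21154 genes. All 12 arrays in 6 groups were fitted with limma 3.58.1 (lmFit, eBayes) in R 4.3.3, 1 mean per group, over probes well above background on both arrays of at least one compared group. Changed meant a two-sided Benjamini-Hochberg adjusted p under 0.05 and over 2-fold. The study states no test for single genes on its arrays. Lists used the probe of highest mean signal per gene and received no test of their own.

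The experiment, lists, markers and tests were chosen with earlier results of these data known. Genes named were the 15 largest changes each way, the 8 largest gains and losses of detection, up to 3 changed members of a list each way (or the 2 largest differences), and Srf with its partners. Further changed members of a list, markers and genes set beside them were named after their values were seen. On data simulated for the Srf comparison (35490 probes), the fit recovered 79% of probes changed by 1.5 and 90% of those changed by 2.5 on the log2 scale, with 3.43% false calls. The simulation changed 200 probes and drew independent noise, with no effect of slide position or culture. Its rates therefore need not hold for the measured arrays. Alternatives were normexp correction (offset 50, on the median spot signal), quantile normalization, the deposited table, other filters, the 4 arrays alone, the replicate number as a block, a variance trend, other thresholds, 1 probe per gene and each array left out. The normexp offset shrinks differences at low signal, so dim genes can fall below 2-fold through the offset alone.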

Additional observations from a re-analysis of the deposited data

Results flagged for a closer look

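Of the named genes changed in arrays labelled Srf, 8 were changed in the opposite direction, also by over 2-fold, in those labelled Mkl1. Only genes well above background on at least 1 array each of EGFP and Mkl1 were counted. They were chosen by their opposite directions, so a large difference between Srf and Mkl1 follows from the choice. Among the largest changes, Sprr2a2 was higher in arrays labelled Srf (3.52) and lower in arrays labelled Mkl1 (-1.24), and Srf minus Mkl1 was 4.75 as a log2 value (limma, SE 0.27, adjusted p = 3.19e-05). Another probe of Sprr2a2 differed by -0.12 in arrays labelled Srf. Dynap was lower in arrays labelled Srf (-2.39) and higher in arrays labelled Mkl1 (2.13), and Srf minus Mkl1 was -4.52 (limma, SE 0.07, adjusted p = 1.49e-07). The other 6 were higher in arrays labelled Srf and lower in arrays labelled Mkl1, and their Srf minus Mkl1 differences were 4.92 for Dkk1, 4.51 for Sfrp2, 3.46 for Sparcl1, 3.21 for Saa3, 2.23 for Tgfb2 and 2.11 for Clu. Srf itself was lower in arrays labelled Srf (-2.46) and differed by 0.71 in arrays labelled Mkl1 (adjusted p = 0.00324), under 2-fold, with a direct difference of -3.17 (adjusted p = 5.69e-07). No explanation was tested for any of these genes.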

How the results depend on the processing

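Against 1168 probes higher and 798 lower, normexp correction gave 508 and 332, adjusted p alone 4597 and 4446, a 1.5-fold threshold 2274 and 1970, and 1 probe per named gene 689 and 409. With the fold alone, 1412 were higher and 1713 lower, so the share of calls that were higher went from 59.4% to 45.2%. It was 66.0% with quantile normalization and 53.1% with no filter on dim probes, which also moved the median of all probes to -0.143. Leaving out each array gave 1007 to 1277 higher and 596 to 1179 lower. Immediate-early genes changed higher numbered 4 to 8 when an array was left out, against 5, and were 8 without EGFP replicate 2. The Srf probes kept their call, and the main-direction counts of the muscle, interferon and Wnt lists (higher, but lower for interferon) and of the difference from Mkl1 stayed within 1.5 times under the alternatives run, while 1 striated muscle gene was lower with the 4 arrays alone and 1 interferon gene higher with quantile normalization, against 0 each.

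For the 171 named genes, 1876 of 2016 values kept their call, 140 lost it and 0 changed direction. The losses were 48 under normexp, 26 with the 4 arrays alone, 11 to 17 when an array was left out, 5 with no filter (Aif1, Angptl1, Esam, Grem1, Il1a), 1 with quantile normalization (Il1a) and 1 with a variance trend (Cxcl15). Of 792 list counts, 717 lay within 1.5 times. With the replicate number as a block, 1178 probes were higher and 856 lower, and 0 named genes lost their call. Deviations of same-numbered EGFP and Srf arrays correlated at 0.18, near the top of a range of -0.068 to 0.203 over 15 pairs of groups. In both groups replicate 1 lay in slide column 4 and replicate 2 in column 3, so number and column cannot be told apart. With 2 arrays a group the precision is limited, and dim probes give bounds.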

Other observations

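Olfactory receptor genes were read at low signal. Of 1064 on the array, 258 were tested. Of these 6 were higher (2.33%, against 4.39% of all tested genes) and 9 lower (3.49%, against 2.61%). The median was -0.43, against -0.01 for all tested genes. With a difference over 2-fold alone and no filter on dim probes, an alternative added after seeing the data, 189 of 1062 were lower and 20 higher. Probes of any gene that were well above background on none of the 4 arrays had a median of -0.26, and 11.7% of them were over 2-fold lower and 1.87% over 2-fold higher. For olfactory receptors in that state the median was -0.27, with 12.3% lower and 0.791% higher. Probes well above background on all 4 arrays had a median of -0.03. The part of low signal in the receptors' shift was not tested.

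Some multigene families not described above had several changed members. Of 281 tested Slc genes (membrane transporters) 21 were higher and 7 lower, and of 48 tested Kcn genes (potassium channels and their subunits) 7 were higher and none lower, at medians of 0.04 and -0.02. Of 35 tested Serpin genes (protease inhibitors) 7 were higher and 5 lower. Serpine2, which inhibits thrombin and plasminogen activators, was higher by 2.52, and Serpinf1 was lower (-1.32). Serpinb1b (at least 3.44-fold) and Serpinb9f (at least 2.68-fold) were gained from levels not well above background. The Serpinb1 and Serpinb9 genes are close paralogs, and their signals may be shared between probes. Kcnmb1, a smooth muscle subunit of the calcium-activated potassium channel, was at least 1.93-fold higher.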
